A study of Homo sapiens with 6 samples.

Results

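The class I antigen presentation and immunoproteasome genes are 9 genes that were listed by name: the heavy chains HLA-B, HLA-C and HLA-E, the light chain B2M, the transporter subunits TAP1 and TAP2, the proteasome subunits PSMB8 and PSMB9, and the transactivator NLRC5. They were found by symbol in the deposited mRNA tables, where they were 9 of 19871 symbols and 39 of 92866 transcripts, and 28 of the 39 transcripts had a value above 0 in at least 1 group. RNA was sequenced from HCT116, an established human colorectal cancer cell line of colon origin, in 3 groups of 2 libraries each. The negative control (NC) is listed by the labels under siRNA, and what it received is not stated further. The GAS5 group is listed under siRNA too, while the treatment notes name a plasmid carrying GAS5, a long non-coding RNA. The siYAP group received siRNA against YAP, the transcriptional co-activator of the Hippo pathway. All groups derive from the same line, and no source used here says whether the 2 libraries of a group came from separate cultures.

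Class I molecules carry peptides cut from the cell's own proteins to the surface, where CD8 T cells and natural killer cells read them. The proteasome cuts the proteins, the TAP1-TAP2 transporter moves the peptides into the endoplasmic reticulum, and there a heavy chain binds a peptide together with B2M. Interferons raise the whole pathway in most cell types: IRF1 acts on the promoters, NLRC5 acts as a co-activator of class I genes, and the inducible subunits PSMB8, PSMB9 and PSMB10 take the place of PSMB5, PSMB6 and PSMB7 in the immunoproteasome.

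The authors deposited only the mean of the 2 libraries in each group, so no SD and no value per library can be given, and no test between groups could be run. The mean counts added up to 27206123 for NC, 25521577 for GAS5 and 26298036 for siYAP. Differences are given as log2 of scaled mean counts after a prior count of 2 was added, with a 95% exact (Clopper-Pearson) interval on the counts of the 2 libraries together. The intervals hold counting error alone, so a difference whose interval leaves out 0 is not shown to exceed the replicate spread. YAP1, the gene targeted in siYAP, had 3480 mean counts in NC against 2679 in GAS5 and 1444 in siYAP, a log2 difference of -1.18 in siYAP (95% exact interval -1.25 to -1.12). GAS5 itself has 0 rows among these mRNA transcripts and is not analysed here. The epithelial markers EPCAM, KRT8, KRT18 and KRT19 were high in all groups, with summed values for 8 epithelial markers of 3425 to 4508 FPKM (fragments counted per length of transcript and per depth of library). Most of the summed value came from KRT8, KRT18 and KRT19, at 1274, 835 and 977 FPKM in NC. Among these 8, the lowest were CDX2, at 3.52, 4.195 and 4.335 FPKM in NC, GAS5 and siYAP, and VIL1. VIL1 was near the floor throughout, at 0, 0.075 and 0.045 FPKM in the same order. Of 11 blood cell markers, 8 stayed under 10 mean counts in every group, the summed level was 4.86 to 7.10 FPKM, and PTPRC was at 0 throughout. In bulk RNA, fewer cells with a transcript and less of it per cell cannot be told apart.

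Promoter stretches are shown because they hold letters that match elements known from interferon-responsive promoters. RefSeq windows on GRCh38.p14, from 250 bases before to 50 after a gene's start, were matched by symbol for 7 of the 9 genes, HLA-E and NLRC5 being the others, and gave 9 windows. They were searched on both strands for the core of the interferon-stimulated response element, TTTCNNTTTC, and for a shorter form, TTTCNNTTC, both chosen after these promoters had been read. Some matches of the 2 forms overlap. Each line below is written 5′ to 3′ along the gene's own strand, with the match in capitals. For B2M and TAP2 the match reads on the opposite strand.
HLA-B, short form, minus strand, chr6:31357315-31357344: ctcccctgagTTTCACTTCttctcccaact
HLA-C, short form, minus strand, chr6:31272224-31272253: ctcccctgagTTTCACTTCtcccaacctgc
B2M, core, plus strand, chr15:44711369-44711398: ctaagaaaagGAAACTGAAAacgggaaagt
TAP1, core, minus strand, chr6:32853813-32853842: ccgctttcgaTTTCGCTTTCccctaaatgg
TAP2, core, minus strand, chr6:32838778-32838807: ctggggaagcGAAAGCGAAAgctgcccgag
PSMB8, core, minus strand, chr6:32844032-32844061: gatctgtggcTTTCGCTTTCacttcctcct

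The core was found in 4 of the 7 genes with a window (B2M, TAP1, TAP2 and PSMB8), against 3.57% of all 35116 promoter windows. The short form was present in 4 (HLA-B, HLA-C, TAP2 and PSMB8), against 7.66% of all windows, and 6 of the 7 genes had one or the other. Genes and windows are unlike units here, as TAP1 and PSMB8 have 2 windows each. Both forms were chosen after these promoters had been read, so the counts only describe these promoters. HLA-B and HLA-C carry the short form 155 and 151 bases before their starts, after the same 10 letters. B2M and TAP1 each hold a second core that overlaps the one printed. The PSMB8 core lies in its second window, whereas all PSMB8 counts fell to ENST00000374881, whose annotated span reaches to chr6:32844703. PSMB9 held neither form in its own window, but it lies head to head with TAP1. The RefSeq starts, at chr6:32853704 for TAP1 and chr6:32854192 for PSMB9, have 487 bases between them, and the TAP1 core stands between these RefSeq starts. However, all TAP1 counts fell to ENST00000354258, whose annotated span reaches to chr6:32853978, so the core lies inside that span. A gamma-activated sequence, TTCNNNGAA, a further element of interferon-responsive promoters, was found in the second windows of TAP1 and PSMB8, and 7.66% of all windows hold it. The CCAAT box, bound by NF-Y and known from class I promoters, was found in 5 of the 7 genes, against 34.6% of all windows. The windows of TAP1 and PSMB9 overlap, and their CCAAT matches, 249 and 243 bases before the starts, are the same letters counted for both genes. A CCAAT box stands 56 bases before the start in both HLA-B and HLA-C, where the stretches were printed for comparison of the shared letters.
HLA-B, CCAAT box, minus strand, chr6:31357216-31357245: tctagagaagCCAATcagcgtcgccgcggt
HLA-C, CCAAT box, minus strand, chr6:31272129-31272158: tctagagaagCCAATcagcgtctccgcagt
A match is a description of the letters and was not tested as a binding site.

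Of the 9 genes, 7 lie on chromosome 6 in GENCODE 29 (GRCh38), HLA-E at chr6:30489467-30494205, HLA-C at chr6:31268749-31272130 and HLA-B at chr6:31269491-31357188. TAP2 (chr6:32821833-32838780), PSMB8 (chr6:32840717-32844703), PSMB9 (chr6:32844136-32859585) and TAP1 (chr6:32845209-32853978) follow each other in the class II region. The annotated span of HLA-B reaches over part of HLA-C through 1 transcript, ENST00000640615 (chr6:31269491-31355404), which held 1.55% of HLA-B counts in NC. B2M is at chr15:44711487-44718877 and NLRC5 at chr16:56989485-57083531. The annotated span of PSMB9 runs over the whole of TAP1 on the opposite strand, but the PSMB9 transcript that received counts, ENST00000374859 at chr6:32854161-32859585, lies outside TAP1. All 32 Ensembl transcripts of the 9 genes are on the primary assembly, and the other 7 were assembled from the reads.

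In the NC cells the 9 genes covered a wide range of levels. By summed FPKM, B2M was at 290.19, HLA-C at 237, HLA-B at 165 and HLA-E at 114, each above 95% of the genes kept. Of the HLA-E value, 58.4 FPKM came from the assembled transcript TCONS_00119978. Of the HLA-B value, 15.1 FPKM came from ENST00000640615, the transcript that reaches over part of HLA-C. The transporter subunits followed at nearly equal summed FPKM, TAP1 at 19.4 and TAP2 at 18.9, and PSMB9 was at 11.2 FPKM. NLRC5 was at 1.54 FPKM, above 15.6% of genes, and PSMB8 at 0.355 FPKM, above 4.98%. The order from B2M to PSMB8 cannot be set against a spread between libraries, and TAP1 and TAP2 were the closest neighbours. TAP2 stood above TAP1 in none of the groups by FPKM, and HLA-C stood above HLA-B in all 3.

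**Figure D1:**
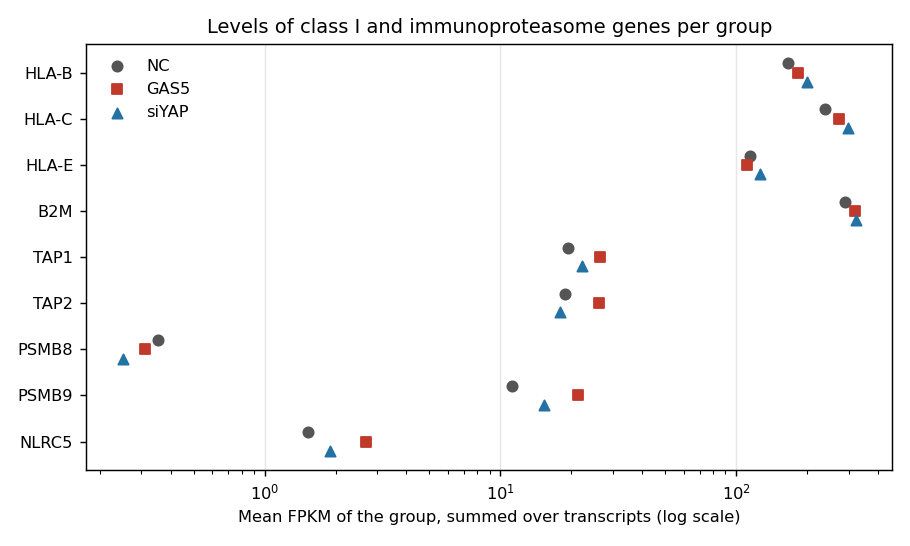
Levels of the 9 genes, with mean FPKM of the group, summed over transcripts, on a log axis and 1 point per group (circle NC, square GAS5, triangle siYAP). The heavy chains and B2M lie above 100 FPKM in all groups, TAP1, TAP2 and PSMB9 between 11.2 and 26.5, and NLRC5 and PSMB8 lowest.

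The first question was how the pathway stood after GAS5 transfection, compared with NC. PSMB9 and NLRC5 were higher by close to 2-fold, TAP1 and TAP2 by about 1.4-fold, and the heavy chains and B2M by 1.19-fold or less. None of the 9 reached 2-fold in either direction, against 3.09% of the 13379 genes kept. PSMB9 and NLRC5, 2 of the 9, were higher by at least 1.5-fold, against 4.81% of genes kept. The median over the 9 genes was 0.25 on the log2 scale with 8 of 9 above 0, beside a median of 0.00 and 50.2% above 0 over all genes kept.

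PSMB9 encodes the inducible subunit that replaces PSMB6. NC had 242.5 mean counts, siYAP 322.5 and GAS5 434.5, so NC was lowest and GAS5 highest. The log2 difference between GAS5 and NC was 0.95 (95% exact interval 0.80 to 1.12), a 1.94-fold difference that was higher than that of 97.6% of genes. All counts of PSMB9 fell to ENST00000374859, and the 2 other transcripts were at 0 in every group.

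NLRC5 encodes the class I transactivator. The groups stood in the same order, with 267.5 summed mean counts in NC, 333.5 in siYAP and 460 in GAS5. The log2 difference between GAS5 and NC was 0.90 (95% exact interval 0.75 to 1.06), or 1.86-fold. This gene sum hides unequal transcripts. ENST00000262510 (chr16:56989498-57083524), which spans nearly the whole gene, had 26.8 mean counts in NC, 89.5 in siYAP and 259 in GAS5, log2 differences from NC of 1.75 in siYAP and 3.30 in GAS5. It made up 10.0% of the NLRC5 counts in NC, 26.8% in siYAP and 56.4% in GAS5. The other 10 rows together had 241, 201 and 244 mean counts in NC, GAS5 and siYAP, log2 differences from NC of -0.14 and 0.10. Most of those counts belonged to a pair of transcripts assembled from the reads: TCONS_00050937 had 139, 85.3 and 157 mean counts in the same order of groups, and TCONS_00050938 had 93.7, 88.7 and 80.6. Without assembled transcripts NLRC5 passed 2-fold, at log2 3.07 in GAS5 and 1.48 in siYAP, while TCONS_00050937 alone gave -0.57 in GAS5. The size of the NLRC5 difference therefore depended on how fragments were divided among its transcripts, and the deposited estimates do not carry an error for that division.

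**Figure D2:**
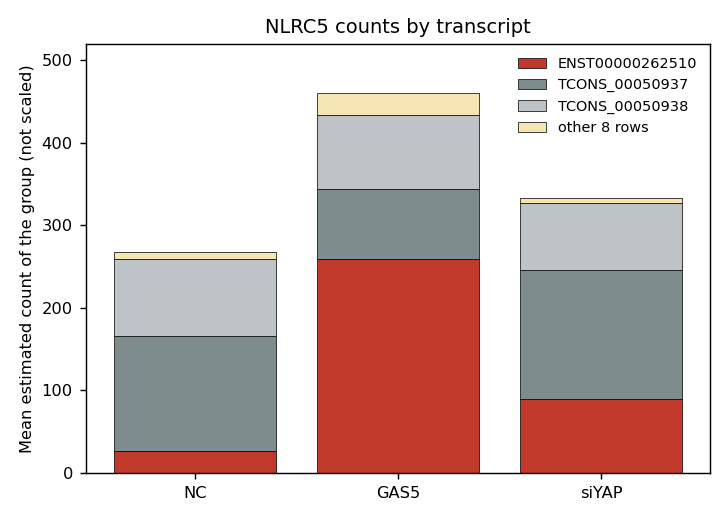
NLRC5 counts in each group, as stacked bars of the mean estimated count (not scaled) by transcript. ENST00000262510 grows from 26.8 in NC to 89.5 in siYAP and 259 in GAS5, while the assembled transcripts TCONS_00050937 and TCONS_00050938 make up most of the NC and siYAP bars.

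TAP1 and TAP2 pair to form the peptide transporter. TAP1 had 1591 mean counts in NC, 1759 in siYAP and 2046.5 in GAS5, and its log2 difference between GAS5 and NC was 0.48 (95% exact interval 0.41 to 0.55). TAP2 had 2115.5, 2768 and 1955 mean counts in NC, GAS5 and siYAP, and its log2 difference between GAS5 and NC was 0.51 (95% exact interval 0.45 to 0.56). Both were highest in GAS5, and in this comparison they were above 93.3% and 93.8% of genes. The main TAP2 transcripts, ENST00000374897 and ENST00000374899, gave nearly the same log2 difference, 0.53 and 0.52. Of the 50-base stretches of ENST00000374897, 64.2% occur in no other gene of GENCODE 29, so reads of the remainder could have been split with a neighbouring annotation.

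The heavy chains present the peptides, HLA-B and HLA-C mainly to T cells and HLA-E mainly to natural killer cells. HLA-B had mean counts of 6532, 6793 and 7679 in NC, GAS5 and siYAP. HLA-C had 9964, 10916 and 12008, and HLA-E had 6089, 5764 and 6612 in the same order. All 3 were highest in siYAP before and after scaling. Their log2 differences between GAS5 and NC were 0.17, 0.25 and 0.04, the last turning to -0.04 when summed FPKM was used. B2M, the light chain shared by all class I molecules, had mean counts of 11804, 11902 and 12526 in that order, a log2 difference of 0.13 in GAS5 (95% exact interval 0.10 to 0.16).

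Reads of the class I heavy chains can be shared among paralogs, yet 97.5% of the 50-base stretches of the main HLA-B transcript, 93.2% of that of HLA-C and 94.9% of that of HLA-E occur in no other gene of GENCODE 29. These shares refer to the reference alleles and not to those of HCT116. Among HLA-C transcripts, ENST00000376228 held 97.7%, 99.8% and 97.0% of counts in NC, GAS5 and siYAP. A minor one, ENST00000640219, had 18.9 mean counts in GAS5 beside 228 in NC and 260 in siYAP (log2 -3.35 in GAS5), and ENST00000415537 was listed at 0 in NC and GAS5 and had 102 in siYAP. For HLA-E the assembled TCONS_00119978 held 33.5%, 29.1% and 31.6% of the counts, and the Ensembl transcript ENST00000376630 alone gave log2 0.13 in GAS5 and 0.25 in siYAP. For B2M, ENST00000558401 held 71.3% of counts in NC and gave log2 0.03 in GAS5, while ENST00000559916 gave 0.36.

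PSMB8 encodes the inducible subunit that replaces PSMB5, and it was barely detected. NC, GAS5 and siYAP had 13.5, 11 and 9 mean counts, that is 27, 22 and 18 counts over the 2 libraries of each group. The log2 difference between GAS5 and NC was -0.15 (95% exact interval -1.06 to 0.69), so a difference within that interval was not detectable at this depth. It was the only one of the 9 genes whose value in GAS5 was below NC on the scaled counts.

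**Figure D3:**
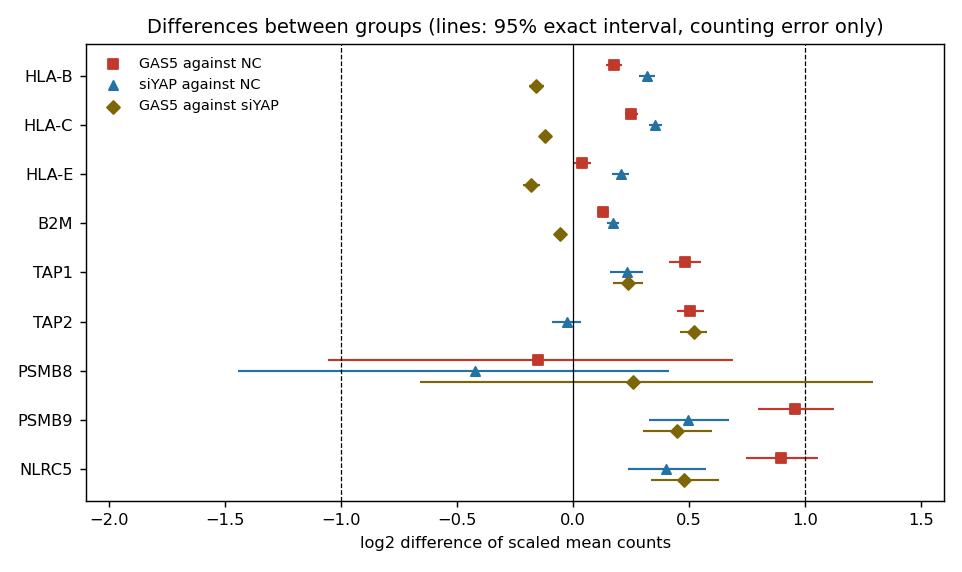
Log2 differences of scaled mean counts for the 9 genes in 3 comparisons (squares GAS5 against NC, triangles siYAP against NC, diamonds GAS5 against siYAP), with 95% exact intervals for counting error as lines and dashed lines at 2-fold. PSMB9 (0.95) and NLRC5 (0.90) lie farthest to the right in GAS5 against NC, and PSMB8 has the widest intervals.

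The second question was how the pathway stood after YAP knockdown. The differences from NC were smaller than 1.5-fold throughout, with PSMB9 at log2 0.49 (95% exact interval 0.32 to 0.67), NLRC5 at 0.40 (0.24 to 0.57), HLA-C at 0.35, HLA-B at 0.32, TAP1 at 0.23, HLA-E at 0.20 and B2M at 0.17. TAP2 was at -0.03 (95% exact interval -0.09 to 0.04) and PSMB8 at -0.42 (-1.45 to 0.41). In this comparison 0 of the 9 genes reached 2-fold in either direction, against 2.28% of the 13308 genes kept, and 0 were higher by 1.5-fold, against 4.69%. The median over the 9 was 0.23 with 7 of 9 above 0, beside a median of 0.00 and 49.97% above 0 over all genes kept. Both comparisons use the same NC values, and any deviation of the NC means shifts the values of GAS5 and siYAP alike.

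The direct comparison of GAS5 with siYAP leaves NC out. TAP2 (log2 0.52), NLRC5 (0.48), PSMB9 (0.45) and TAP1 (0.24) were higher in GAS5, and HLA-E (-0.18), HLA-B (-0.16), HLA-C (-0.12) and B2M (-0.06) were higher in siYAP. Under alternative processing NLRC5 ranged from -0.85 to 1.57. TAP2, NLRC5, PSMB9 and TAP1 lay above 89.3%, 87.7%, 86.2% and 73.3% of genes kept. HLA-E, HLA-B, HLA-C and B2M lay above 31.1%, 33.1%, 36.9% and 43.7%, within the main body of genes. For these 8 genes the 95% exact counting intervals left out 0, on either side for 4 genes each. PSMB8 was at 0.26 with an interval from -0.66 to 1.29. Of the 9 genes 0 reached 2-fold in either direction, against 4.66% of the 13386 genes kept, and 0 were higher in GAS5 by 1.5-fold, against 8.72%. Per length, TAP1 and TAP2 were balanced in NC (TAP1 to TAP2 ratio of FPKM 1.03) and in GAS5 (1.01), and TAP1 was in excess in siYAP (1.24). The ratio of B2M to the summed heavy chains HLA-B, HLA-C and HLA-E was 0.561 in both NC and GAS5 and 0.516 in siYAP.

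The inducible proteasome subunits remained a small part beside their constitutive counterparts. PSMB9 was at 7.56% of the FPKM of PSMB6 in NC, 11.3% in siYAP and 12.2% in GAS5. The share in GAS5 was reached with PSMB6 itself higher (148, 174 and 136 FPKM in NC, GAS5 and siYAP), whereas PSMB6 was lowest in siYAP. PSMB10, the remaining inducible subunit, was at 4.30%, 5.57% and 4.69% of PSMB7, and PSMB8 at 0.329%, 0.233% and 0.207% of PSMB5. Summed over the 3 pairs, the inducible subunits were at 4.44% of the constitutive ones in NC, 5.70% in siYAP and 6.55% in GAS5.

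**Figure D4:**
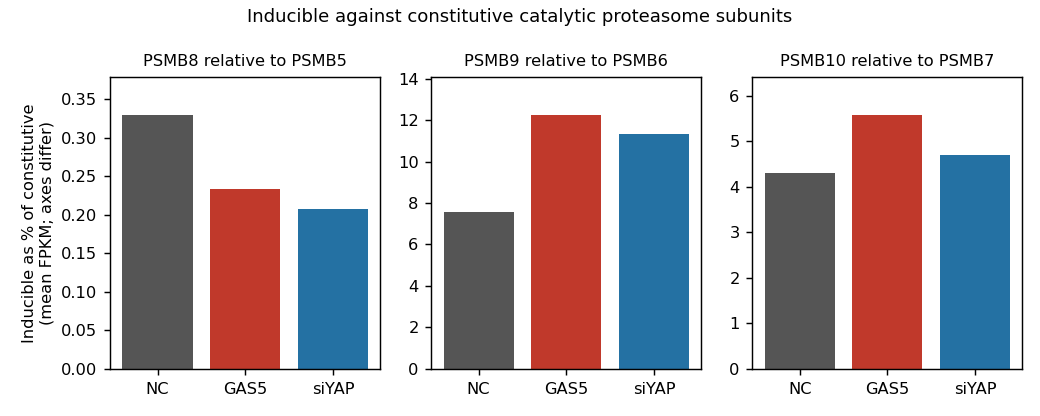
Inducible proteasome subunits as a percentage of the mean FPKM of the constitutive subunit each replaces, as bars for NC, GAS5 and siYAP with an axis from 0 in each panel. PSMB9 relative to PSMB6 goes from 7.56% in NC to 12.2% in GAS5 and 11.3% in siYAP, while PSMB8 stays below 0.4% of PSMB5.

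The other genes of the pathway were taken from 5 lists with 38 genes, of which 34 were kept by the filter on low counts. IRF1, which binds the interferon-stimulated response element, had 687, 836.5 and 715 mean counts in NC, GAS5 and siYAP, log2 0.40 in GAS5 and 0.14 in siYAP. In GAS5 against NC 3 of the 34 were higher by at least 1.5-fold, beside 4.81% of all genes kept, among them the peptide-trimming enzyme ERAP2 (log2 0.80) and PSMB10 (0.64). In siYAP 0 of the 34 were so, beside 4.69%. The medians over the 34 genes were 0.12 in GAS5 and -0.01 in siYAP. Of 8 genes of peptide loading and trimming, 4 were above 0 in GAS5, with a median of 0.00. All 4 of the other inducible proteasome genes were above 0 in GAS5, with a median of 0.43, and the constitutive PSMB5, PSMB6 and PSMB7 were at 0.33, 0.26 and 0.27. Of the 7 other heavy chains and relatives kept, 0 reached 2-fold in any comparison, against 2.28% to 4.66% of all genes kept. Of the class II genes, 7 of 9 were kept in GAS5 against NC and 0 of them reached 2-fold there, against 3.09% of all genes kept. Their median was -0.34, with 2 of the 7 above 0.

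Genes known as effectors of the interferon response, 12 IFIT, IFITM and IFI genes listed after their values were known, differed from NC by more than the class I genes did in the same GAS5 libraries, on the median. Because the list was chosen in that way, this contrast describes these 12 genes only. In GAS5 against NC 9 of the 12 were higher by at least 2-fold, against 295 of all 13379 genes kept. The median of the 12 was 3.35 on the log2 scale with a range of 0.49 to 4.21. IFIT1, which binds viral RNA, had 3050.5 mean counts in GAS5 against 216.5 in NC and 172 in siYAP. In siYAP against NC, 10 of the 12 were kept and 0 reached 2-fold in either direction, against 2.28% of all genes kept. Their median was 0.12. The largest class I difference in GAS5, that of PSMB9, lay between those of IFITM2 (0.49) and IFIT5 (0.98), and IFI35, at 1.09, was the lowest of the effectors past 2-fold. Markers of other cell types differed as well. Of the 11 blood cell markers, the monocyte receptor CD14 had 4.5 mean counts in NC, 3 in siYAP and 37.5 in GAS5 (log2 2.72), and the macrophage marker CD68 had 202.5, 203 and 279.5 (log2 0.58). CD8A went the other way, with 19.5 in NC, 31.5 in siYAP and 16.5 in GAS5 (log2 -0.11 in GAS5 and 0.72 in siYAP). Of 7 stromal markers, 5 stayed under 10 mean counts in every group, DCN was at 0 throughout, and the summed level was 2.37 FPKM in NC, 3.19 in siYAP and 3.52 in GAS5. COL1A1, a collagen chain, was at log2 0.67 in GAS5 and 0.60 in siYAP against NC, and VWF was at -0.05 in GAS5 and 0.65 in siYAP. The part of these markers in the class I values was not tested.

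**Figure D5:**
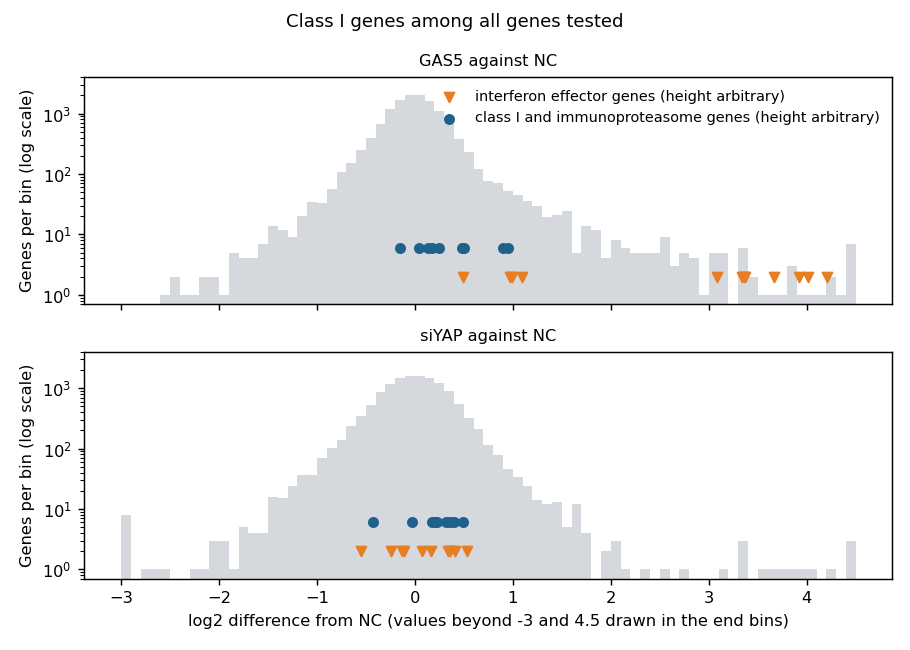
Log2 differences from NC of all genes kept (grey bars, genes per bin of 0.1 on a log axis) with the 9 class I and immunoproteasome genes as circles and the interferon effector genes as triangles, their heights being arbitrary. In GAS5 the circles end at 0.95 and the triangles reach 4.21, while in siYAP both sets lie within the main body of genes.

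The 5 genes whose pair of differences from NC lay nearest to the members' median pair (0.25 in GAS5 and 0.23 in siYAP), among 11917 genes with at least 50 mean counts in NC, were RAE1, EDC3, TMEM216, UBL5 and GET4. Likeness was the Euclidean distance over the 2 log2 differences, from 0.0019 for RAE1 to 0.0096 for GET4.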

How the data were processed

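Strand-specific lncRNA-seq libraries (dUTP method, Illumina) were made from HCT116 cells, 2 each for NC, GAS5 and siYAP. TopHat2 2.1.1 is named in the submitters' processing notes, and the counting tool, the genome build and the annotation are not given in the sources used here. The deposited expected counts are the authors' estimated counts per mRNA transcript, averaged over the 2 libraries of a group. The deposited FPKM values were averaged in the same way by the authors, who wrote 0 as 0.001, which was set back to 0 here. The tables also hold the authors' own fold changes, p-values and false discovery rates, which were not used.

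Tables were joined by transcript, symbols were taken from the siYAP table in upper case, and counts were summed by symbol. Gene sums were scaled by TMM in edgeR 4.0.16 (R 4.3.3) after filterByExpr with a minimum count of 10 ("genes kept"), and a prior count of 2 was added. The edgeR quasi-likelihood test that had been planned needs values per library and was not run, so a difference was described as past a threshold at 2-fold, with 1.5-fold as a further description added later. Intervals were computed in scipy 1.17.1. The scaling and difference steps were run on simulated gene counts with known changes and counting error alone. That run could not test replicate spread or the division of fragments among transcripts. The members and all gene lists were chosen with earlier results of these data known. All 9 members are named; of the other lists, genes past 2-fold in any comparison and PSMB5, PSMB6, PSMB7 and IRF1; of transcripts, the most abundant and those past 2-fold with at least 50 mean counts in a group; and the 5 genes nearest in pattern. An item that this rule also covers is not reported here. ERAP2, PSMB10, marker genes, interferon effector genes and other transcripts were named after their values were seen. Positions come from GENCODE 29 and promoters from RefSeq.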

Additional observations from a re-analysis of the deposited data

How the results depend on the processing

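Because the deposited values are group means, leaving out a library and the DESeq2 test were not run, and differences cannot be set against replicate spread. No paired analysis was possible because the columns carry no values per replicate. Of 297 values computed under alternatives, 249 stayed close to the reported value and 48 did not, where close means within counting error for a difference, a median or a ratio and within 1.5 times for a count of genes. No member was past 2-fold as reported, so a turn of direction past 2-fold could not occur. Smaller values did change sign under some alternatives. These were NLRC5 in GAS5 against NC and against siYAP, HLA-E in GAS5 against NC, and TAP2 in siYAP against NC. The members' median in GAS5 against siYAP changed sign as well. With primary assembly rows only, and without assembled transcripts, 1 of 9 members (NLRC5) passed 2-fold in each comparison in place of 0, because these alternatives drop the assembled NLRC5 rows. With the most abundant transcript alone, the members' median was 0.17 in GAS5 against NC and -0.078 in GAS5 against siYAP, NLRC5 being at -0.57 and -0.85. With the ratio of summed FPKM (pseudocount 0.01) the median in GAS5 against NC was 0.20. Of the other pathway genes, 2 rather than 1 passed 2-fold in GAS5 against NC and in GAS5 against siYAP, both with no low-count filter (CIITA and TAPBPL, at 0 to 2.5 mean counts) and with the most abundant transcript alone (ERAP2 and FCGRT). By summed counts the inducible to constitutive ratio was 4.10% in NC, 4.95% in siYAP and 5.88% in GAS5. DESeq2 size factors, total count scaling and a prior count of 0.5 changed none of the counts past 2-fold. Over 8 alternatives, TAP2 in siYAP against NC ranged from -0.08 to 0.01. Few counts limit PSMB8 most.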

Other observations

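Values of related antigen presentation genes, named after their values were seen, are given here. HLA-DRA, the alpha chain of the class II molecule HLA-DR, had 161 mean counts in NC, 190.5 in siYAP and 108.5 in GAS5, a log2 difference from NC of -0.44 in GAS5 and 0.32 in siYAP. CD74, the chaperone of class II molecules, had 6.5, 12 and 9 mean counts in NC, GAS5 and siYAP. CIITA, the class II transactivator and a relative of NLRC5, was listed at 0 in NC, with 2.5 mean counts in GAS5 and 1 in siYAP, too few for a comparison. HLA-F, a non-classical heavy chain, was at log2 0.39 in GAS5 and 0.46 in siYAP. The stress ligands MICA and MICB, read by natural killer cells, were at 0.23 and 0.28 in GAS5 and at 0.16 and -0.02 in siYAP. These values come from means of 2 libraries and were not tested.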
